A study of Mus musculus with 12 samples.

Results

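The 35 genes described here encode the core machinery of autophagy and its cargo receptors. They were taken from the deposited table by gene symbol, and all 35 listed symbols were found among its 53801 gene records. Gene expression had been measured by RNA-seq in RAW264.7 cells, which are a transformed mouse line with macrophage character, at passages 3 to 5. The 4 groups held 3 libraries each. They were cells with a control siRNA without lipopolysaccharide (LPS, 0 h), cells with an siRNA against Synbindin without LPS (called silenced cells), and the same kinds of cells after 4 h with LPS at 100 ng/ml. The groups without LPS were all labelled 0 h, and none was kept for 4 h without LPS. LPS and the passing of 4 h therefore cannot be told apart in any change with LPS given here. Synbindin is the protein of Trappc4 and belongs to the TRAPP complex, which tethers transport vesicles. LPS is a component of the outer membrane of bacteria that activates macrophages through Toll-like receptor 4. All 12 libraries thus came from 1 line that had received an siRNA, and the group with the control siRNA is the reference. The labels number the replicates but do not say whether they came from separate cultures, so the p-values rest on a spread that may be technical.

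Autophagy encloses part of the cytoplasm in a double membrane, the autophagosome, and delivers it to the lysosome. The ULK1 kinase complex starts the process, a class III phosphatidylinositol 3-kinase (PI3-kinase) complex marks the membrane, ATG9 and the lipid-transfer protein ATG2 supply lipid, and 2 ubiquitin-like conjugation systems attach ATG8 proteins (LC3 and GABARAP) to the growing membrane. Cargo receptors such as p62, the product of Sqstm1, bind ubiquitin and ATG8 proteins together, and are themselves degraded with the cargo. In macrophages, autophagy also takes part in clearing intracellular bacteria and in limiting inflammation. RNA levels do not measure the flow through the pathway.

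Values are FPKM (fragments for each kilobase of transcript, relative to the mapped fragments of the library) from the authors' table, and a group is written as mean ± SD (n = 3). Log2 fold changes are differences of log2(FPKM + 1) from limma, given ± SE, and a gene was called changed at an adjusted p (Benjamini and Hochberg, over the 13078 genes tested) under 0.05. Of the 35 members, 34 had at least 1 FPKM in at least 3 libraries and were tested. The exception was Optn (optineurin, a receptor for damaged mitochondria and bacteria), which lay between 0 and 0.25 FPKM in the 12 libraries. Estimated depth was 7.36 to 17.6 M (mega) fragments per library, with group means of 9.13 ± 2.17 M and 12 ± 4.41 M without LPS and 11.9 ± 1.55 M and 15.2 ± 2.14 M after LPS (control, then silenced). Macrophage markers were present in each library (Cd68 at 362 to 488 FPKM, Csf1r at 136 to 349.7 FPKM), and 22 markers of B, T and NK cells, neutrophils, fibroblasts and epithelium were under 1 FPKM in each, 14 of them at 0 throughout. The summed level of the 8 macrophage markers was 2158 ± 218 FPKM in silenced against 1473 ± 75.0 FPKM in control cells without LPS, and 1913 ± 285 against 1340 ± 109 FPKM after LPS. Without LPS most of that gap was a single marker, Lyz2, whose reads may be shared with its paralog Lyz1. Lyz2 was at 1214 ± 222 against 554 ± 41.1 FPKM without LPS and at 1097 ± 229 against 463 ± 40.9 FPKM after LPS. After LPS this gap was wider than that of the sum, so the mean sum of the other macrophage markers was lower in silenced cells. The part of Lyz2 or the other markers in the results below was not tested.

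The silenced gene itself was measured first. Trappc4 stood at 14.1, 13.1 and 12.5 FPKM in the control libraries without LPS and at 4.35, 7.17 and 6.15 FPKM in the silenced ones, and after LPS at 13.8, 15.7 and 9.45 against 5.86, 7.71 and 8.26 FPKM. The groups did not overlap at either time, and 44.5% of the control mean remained without LPS and 56.1% after LPS. A 2-sided exact permutation test of 3 against 3 libraries gave p = 0.1 at each time, which is the smallest p it allows. With limma the adjusted p was 0.0558 without and 0.120 with LPS, so the target did not pass over all genes at either time. As measured, the silencing was partial. Exons of Trappc4 share 462 bases with Rps25 on the opposite strand, and the strand setting of counting is not given. The remaining Trappc4 FPKM may therefore include reads of Rps25, which was not tested.

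Per length, Sqstm1 was the most abundant member, with a mean of 202.6 FPKM over the 12 libraries (76.5 to 349.8). Gabarap followed at 37.7 FPKM, then Atg3 (20.1), Tax1bp1 (15.9), Gabarapl2 (13.9), Atg5 (13.7) and Gabarapl1 (12.9). Although the ranges of Atg3, Tax1bp1, Gabarapl2 and Atg5 overlapped, Atg3 lay above Tax1bp1, Atg5 and Gabarapl1 in every library. Tax1bp1 likewise lay above Atg5 in every library. The order of the other pairs among Atg3, Tax1bp1, Gabarapl2, Atg5 and Gabarapl1 differed between libraries, so it is not settled. At the low end were Rb1cc1 (1.83 FPKM), Wipi1 (1.68), Calcoco1 (1.5) and Map1lc3a (1.40). Together the members made up 0.111% ± 0.010 of all FPKM in control cells without LPS and 0.167% ± 0.008 after LPS, the corresponding shares in silenced cells being 0.114% ± 0.004 and 0.157% ± 0.009. The sum of their FPKM in control cells was 365 ± 23.2 without and 561 ± 21.6 with LPS, and Sqstm1 alone was at 86.5 ± 11.1 and 320.0 ± 25.5 FPKM.

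Promoter stretches are shown for 3 genes at which the LPS response was large and for which bases outside annotated exons could be read from the RefSeq promoter table (GRCm38.p6). They are Sqstm1, the member that rose most, and the kinases Ulk1 and Ulk2, which both fell. This choice was made after their values were seen and does not follow from these criteria alone. Nbr1, Uvrag and Atg2a, which changed more than Ulk1 and Ulk2 and also had such bases, are not shown. The capitals in Sqstm1 (chr11:50210828-50210889, minus strand) mark a match to the kappaB site bound by NF-kB factors, and those in Ulk2 (chr11:61855093-61855342, minus strand) mark a match to the antioxidant response element. The Ulk1 stretch (chr5:110810098-110810331, minus strand) held none of the 5 motifs searched and is shown beside its paralog.
Sqstm1: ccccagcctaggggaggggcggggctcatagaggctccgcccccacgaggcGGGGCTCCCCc
Ulk1: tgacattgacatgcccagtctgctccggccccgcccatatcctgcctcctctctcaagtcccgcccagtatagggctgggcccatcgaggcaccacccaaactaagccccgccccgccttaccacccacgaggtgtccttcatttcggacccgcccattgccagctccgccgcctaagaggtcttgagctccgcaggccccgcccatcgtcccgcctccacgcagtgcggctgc
Ulk2: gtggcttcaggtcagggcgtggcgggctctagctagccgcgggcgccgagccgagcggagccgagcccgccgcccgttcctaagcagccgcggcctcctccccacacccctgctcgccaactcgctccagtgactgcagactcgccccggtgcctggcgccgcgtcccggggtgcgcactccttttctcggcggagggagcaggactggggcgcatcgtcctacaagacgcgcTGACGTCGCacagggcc

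The 250 bases before the RefSeq start could be searched on both strands for 33 promoters of 29 members. There was no entry for Rb1cc1, Atg12, Map1lc3a, Pik3c3, Atg16l1 or Becn1. The E-box CACGTG, which TFEB and TFE3 bind within a longer site, was found in 3 promoters (Atg3, Atg5 and Atg7), or 9.09%, against 6.02% of all 32851 promoters. The antioxidant response element TGACNNNGC was found in 3 (Atg13, Tax1bp1 and Ulk2), or 9.09%, against 10.2%. The gamma-interferon activation site TTCNNNGAA was found in 4 (Gabarap, Gabarapl1, Nbr1 and Wipi1), or 12.1%, against 7.02%. The kappaB site was found in 2 (Sqstm1 and Atg101), or 6.06%, against 7.25%, and the FOXO motif GTAAACA in 0, against 3.17%. The motifs do not overlap one another in these matches, and a match is a description of the letters, not of binding. Of the members with a gamma-interferon activation site, Gabarapl1 rose and Nbr1 fell with LPS in control cells, and Gabarap and Wipi1 were not called. Of those with an antioxidant response element, Atg13 and Ulk2 were called lower there and Tax1bp1 was not called. The 3 members with an E-box were not called. Both members with a kappaB site were called higher, but Atg101 in 9 of 22 alternative settings only and not in silenced cells. Among all genes 15.3% were higher and 32.9% lower in control cells. Whether a motif has a part in these calls was not tested.

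On the deposited scale, the autophagy genes called with LPS in control and silenced cells were mostly lower, as were those called among all genes. In control cells 20 of the 34 tested members were called (58.8%, where 48.2% of all genes tested were), 4 higher and 16 lower, against 15.3% higher and 32.9% lower among all genes. In silenced cells 15 were called (44.1%, against 48.5% of all genes), 1 higher and 14 lower, against 13% and 35.5%. The median log2 fold change was -0.29 in control cells and -0.23 in silenced cells, beside -0.17 and -0.21 for all genes tested. The members' shares thus lay above that of all genes in control cells and below it in silenced cells. Of the members, 12 were called in both, 8 in control cells only, 3 in silenced cells only and 11 in neither, and the test of the difference (the interaction) called 0 of the 34. Libraries before and after LPS did not overlap for 22 members in control cells (5 higher, 17 lower), where this held for 56.2% of all genes (18.2% higher, 38% lower). In silenced cells they did not overlap for 19 (1 higher, 18 lower), against 57.8% (16% and 41.9%).

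The split between higher and lower depends on the scaling of the libraries. Median-ratio scaling raised the median of all genes with LPS by 0.19 in control and 0.22 in silenced cells, and quantile normalization by 0.12 and 0.14. Under median-ratio scaling 11 members were higher and 11 lower in control cells, while silenced cells had 4 higher and 9 lower. Under quantile normalization the counts were 9 and 9, and 4 and 9. Over all settings run, other filters included, 4631 to 6558 of all genes were called in control cells and 4659 to 6715 in silenced cells. The share of all genes called under each scaling is not given here. Counts of genes called under a scaling, here and below, are therefore not set against it. Among all genes called, the share that was higher went from 31.7% as deposited to 51.8% with median-ratio scaling in control cells, and from 26.8% to 51.1% in silenced cells. The members called in the same direction under the deposited scale and all 3 other scalings were, in control cells, Sqstm1 and Gabarapl1 (higher) and Ulk1, Ulk2, Rb1cc1, Pik3c3, Atg2a, Atg2b, Atg12, Nbr1 and Calcoco1 (lower). In silenced cells they were Sqstm1 (higher) and Ulk1, Ulk2, Pik3c3, Pik3r4, Atg9a, Atg2a, Atg2b, Atg4c and Nbr1 (lower).

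**Figure D1:**
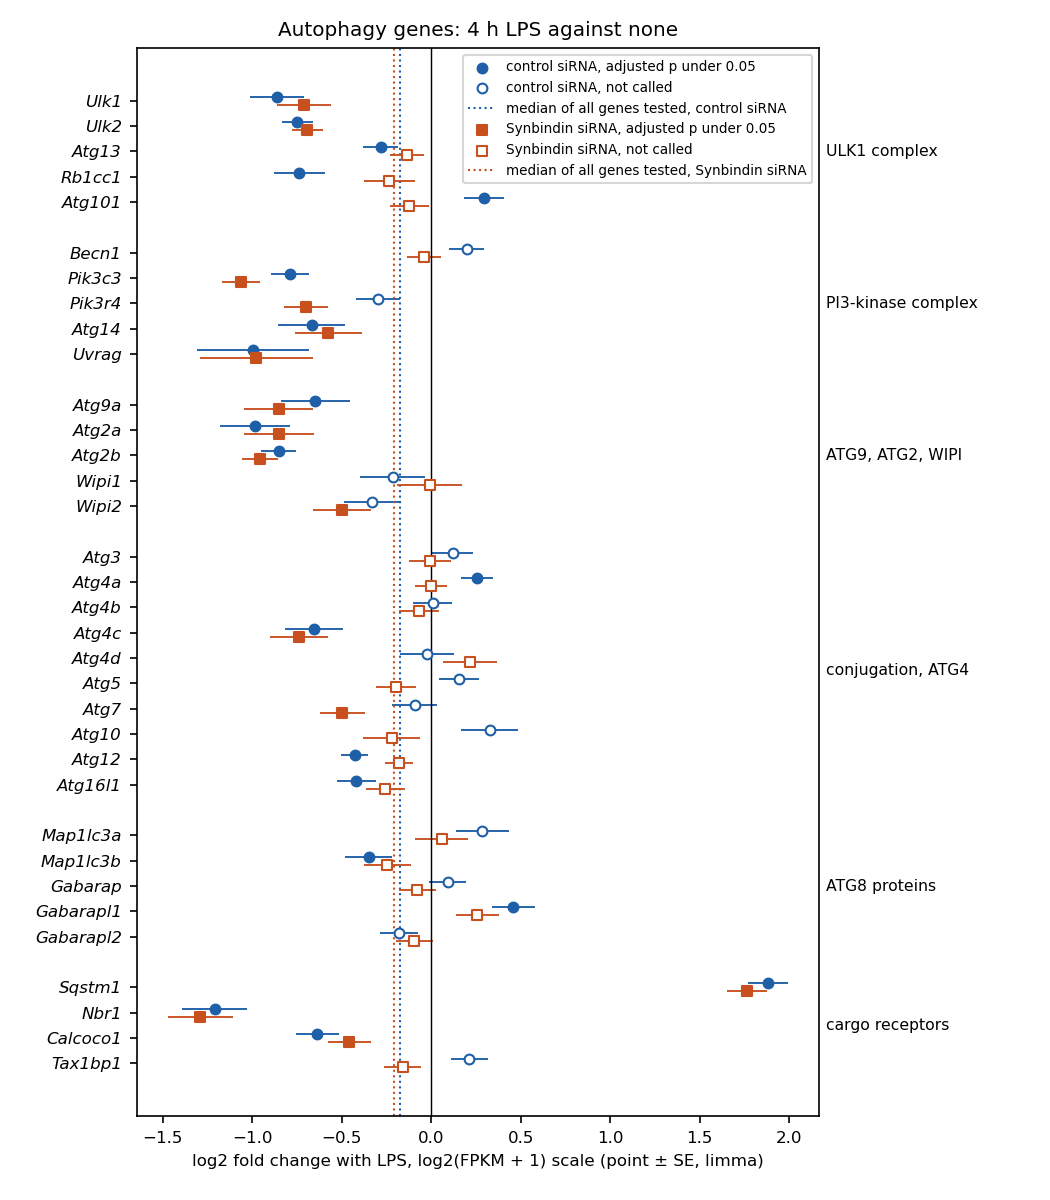
Log2 fold change with 4 h of LPS (x axis, log2(FPKM + 1) scale) for the 34 tested autophagy genes, grouped by role, in control siRNA cells (blue circles) and Synbindin siRNA cells (orange squares). Bars are SE, filled symbols passed an adjusted p of 0.05 with limma, and dotted lines are the medians of all genes tested (-0.17 and -0.21). Sqstm1 stands apart on the right at 1.88 and 1.76, while the initiation, PI3-kinase and lipid-supply genes lie mostly to the left.

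In bulk RNA, fewer cells expressing a gene and less RNA per cell cannot be told apart, which holds for each change given here. The ULK1 kinase complex consists of the kinases ULK1 and ULK2 and their partners ATG13, FIP200 (Rb1cc1) and ATG101. In control cells its 5 genes were all called (48.2% of all genes were), Ulk1, Ulk2, Atg13 and Rb1cc1 lower and Atg101 higher. The call of Atg13 there was made in 14 of 22 alternative settings and lost under median-ratio scaling and quantile normalization. In silenced cells (48.5% of all genes called) Ulk1 and Ulk2 were lower and the other 3 were not called. Ulk2 (chromosome 11, 61775649 to 61855073, minus strand) was at 9.95, 9.48 and 10.4 FPKM in control libraries without LPS and at 5.27, 5.84 and 5.46 FPKM after LPS, and in silenced libraries at 8.17, 8.37 and 8.89 and then 4.66, 5.42 and 4.55 FPKM. Every library with LPS was below every library without it. The log2 fold change of Ulk2 was -0.75 ± 0.09 (adjusted p = 3.24e-05) in control and -0.69 ± 0.09 (adjusted p = 5.32e-05) in silenced cells. Ulk1 went from 3.55 ± 0.89 to 1.48 ± 0.26 FPKM in control cells and from 2.84 ± 0.13 to 1.35 ± 0.26 FPKM in silenced cells, log2 fold changes of -0.86 and -0.71. Rb1cc1, the scaffold of the complex, went from 2.66 ± 0.09 to 1.21 ± 0.29 FPKM in control cells (-0.74 ± 0.14) and had 1.96 ± 0.42 and 1.5 ± 0.25 FPKM in silenced cells (-0.23 ± 0.14, adjusted p = 0.202 with limma). Atg101 went from 6.41 ± 0.34 to 8.10 ± 0.34 FPKM in control cells, and this call was made in 9 of 22 alternative settings only, being lost when any 1 of the 6 control libraries was left out.

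The class III PI3-kinase complex holds the lipid kinase VPS34 (Pik3c3), its regulatory subunit VPS15 (Pik3r4), Beclin 1 (Becn1) and either ATG14 or UVRAG. Of its 5 genes, 3 were lower in control cells (Pik3c3, Atg14 and Uvrag) and 4 in silenced cells (the same 3 and Pik3r4). Becn1 was not called in either. Of all genes, 32.9% were lower in control and 35.5% in silenced cells. The calls of Uvrag were lost under median-ratio scaling and under quantile normalization. That of Atg14 was lost under quantile normalization in control cells and under both in silenced cells. Becn1 was higher in control cells under both. Pik3c3 was at 11.8, 13.5 and 13.3 FPKM in control libraries without LPS and at 7.81, 6.17 and 7.14 FPKM after LPS. In silenced libraries it was at 12.2, 12 and 14.7 FPKM without LPS and at 5.68, 5.50 and 5.81 FPKM after LPS. The libraries with LPS lay wholly below those without, and the 3 silenced libraries with LPS lay below the 3 control libraries with LPS. The log2 fold change was -0.79 ± 0.10 (adjusted p = 8.68e-05) in control cells and -1.06 ± 0.10 (adjusted p = 8.47e-06) in silenced cells, and the difference between them was -0.27 with a 95% interval of -0.60 to 0.05 (interaction, adjusted p = 0.517). Uvrag had a like mean change (-1.0 ± 0.32 and -0.98 ± 0.32) with a wide spread, at 6.46 ± 2.65 FPKM in control cells without LPS. Its call in control cells was lost without control replicate 1 at 0 h or control replicate 1 or 3 at 4 h, and in silenced cells without replicate 3 of either time.

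Lipid supply and site marking are the work of the scramblase ATG9A, the transfer proteins ATG2A and ATG2B, and the lipid-binding WIPI1 and WIPI2. Atg9a, Atg2a and Atg2b were lower in both control and silenced cells, Wipi2 was lower in silenced cells, and Wipi1 was not called. Of all genes, 32.9% were lower in control and 35.5% in silenced cells. The calls of Atg9a in control cells and Wipi2 in silenced cells were lost under median-ratio scaling and quantile normalization. Atg2b (chromosome 12, 105616136 to 105685211, minus strand) was at 6.38, 5.56 and 5.70 FPKM in control libraries without LPS and at 2.87, 2.88 and 2.67 FPKM after LPS. In silenced libraries it was at 5.82, 5.15 and 4.69 FPKM and then at 2.36, 2.24 and 2.02 FPKM. There was no overlap between libraries with and without LPS. The log2 fold change of Atg2b was -0.85 ± 0.10 (adjusted p = 3.38e-05) in control and -0.95 ± 0.10 (adjusted p = 1.30e-05) in silenced cells. Its paralog Atg2a went from 5.87 ± 1.51 to 2.43 ± 0.28 FPKM and from 4.62 ± 0.36 to 2.19 ± 0.90 FPKM. The summed FPKM of the 5 genes was 27.4 ± 4.60 and then 15.7 ± 0.68 in control cells, while in silenced cells it was 25.6 ± 0.99 and then 14.2 ± 2.86. Exons of Atg9a share 1832 bases of the same strand with the predicted gene Gm29253, so its level is uncertain. The call of Wipi2 in silenced cells was lost in 8 of 22 alternative settings, among them leaving out any 1 silenced library without LPS or silenced replicate 3 with LPS.

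Within the conjugation systems, ATG7 is the activating enzyme, ATG3 and ATG10 are the transfer enzymes, ATG12 is joined to ATG5 and works with ATG16L1, and the ATG4 proteases process ATG8 proteins. Of these 10 genes, 4 were called in control cells (Atg4c, Atg12 and Atg16l1 lower, Atg4a higher) and 2 in silenced cells (Atg4c and Atg7 lower). Of all genes, 48.2% were called in control and 48.5% in silenced cells. Atg12 was at 10.2, 9.39 and 10.8 FPKM in control libraries without LPS and at 7.49, 7.20 and 7.15 FPKM after LPS, and in silenced libraries at 9.32, 9.98 and 9.73 and then 8.23, 8.72 and 8.31 FPKM. The libraries with LPS were below those without in both, and after LPS the 3 silenced libraries were above the 3 control ones. Its log2 fold change was -0.43 ± 0.08 (adjusted p = 0.000777) in control and -0.18 ± 0.08 (adjusted p = 0.0727) in silenced cells. The difference between these, 0.25 with a 95% interval of 0.01 to 0.49, did not pass (interaction, adjusted p = 0.427 with limma). Atg4c went from 5.65 ± 0.51 to 3.29 ± 0.96 FPKM in control cells and from 5.64 ± 1.13 to 2.94 ± 0.13 FPKM in silenced cells. Atg7 was at 7.85 ± 1.27 and 7.27 ± 0.78 FPKM in control cells and went from 8.86 ± 0.58 to 6.01 ± 0.76 FPKM in silenced cells. Atg3 and Atg5, the most abundant of the group, were not called in either. The scaling changed calls here: under median-ratio scaling 4 of the 10 genes were higher and 2 lower in control cells, and 2 higher (Atg4a and Atg4d) and 1 lower (Atg4c) in silenced cells. The calls of Atg7 in silenced cells and Atg16l1 in control cells were lost under both median-ratio scaling and quantile normalization.

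ATG8 proteins are the ubiquitin-like tags of the autophagosome membrane. Gabarap made up 52.6% ± 3.03 of the summed FPKM of the 5 genes in control cells without LPS and 53.2% ± 1.27 after LPS. Gabarapl1 (chromosome 6, 129533160 to 129542346, plus strand) rose in control cells under each scaling. It was at 10.5, 8.58 and 11.1 FPKM without LPS and at 13.1, 13.7 and 15.8 FPKM after LPS, with no overlap. In silenced libraries Gabarapl1 was at 14.4, 11.7 and 11.2 FPKM without LPS and at 15.2, 15.4 and 14.3 FPKM after LPS, where the highest library without LPS lay above the lowest with it. The log2 fold change was 0.46 ± 0.12 (adjusted p = 0.00730) in control and 0.26 ± 0.12 (adjusted p = 0.0925) in silenced cells, and the interaction was -0.20 (95% interval -0.57 to 0.17, adjusted p = 0.680). Its share of the ATG8 sum was 14.9% ± 0.65 before and 20.1% ± 1.55 after LPS in control cells. Map1lc3b, which encodes the commonly used autophagosome marker LC3B, was at 6.31 ± 1.14 and then 4.70 ± 0.49 FPKM in control cells (-0.35 ± 0.13, adjusted p = 0.0458), a call made in 8 of 22 alternative settings and lost when control replicate 1 or 3 at 0 h, silenced replicate 2 or 3 at 0 h, or any library at 4 h was left out. Its share of the sum was 9.34% ± 0.84 and 6.66% ± 0.59. In silenced cells 0 of the 5 ATG8 genes were called as deposited (48.5% of all genes were), and 1 (Gabarapl1) was higher under median-ratio scaling. In control cells that scaling gave 3 higher (Gabarapl1, Gabarap and Map1lc3a) and 0 lower, against 1 higher and 1 lower as deposited.

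Among the 34 tested members, the cargo receptors Sqstm1 and Nbr1 had the largest rise and the largest fall with LPS on the log2(FPKM + 1) scale. The other tested receptors changed less. Sqstm1 (chromosome 11, 50199366 to 50210827, minus strand) was at 84.5, 76.5 and 98.5 FPKM in control libraries without LPS and at 306.0, 305 and 349 FPKM after LPS. In silenced libraries it was at 83.3, 90.7 and 99.7 FPKM without LPS and at 294, 294 and 349.8 FPKM after LPS. The 6 libraries with LPS were all above the 6 without, and control and silenced libraries overlapped at both times. The log2 fold change was 1.88 ± 0.11 (adjusted p = 1.96e-07) in control cells and 1.76 ± 0.11 (adjusted p = 2.64e-07) in silenced cells, a 3.70-fold and a 3.43-fold ratio of mean FPKM. The difference between these changes was -0.12 with a 95% interval of -0.46 to 0.23 (interaction, adjusted p = 0.819). Exons of Sqstm1 share 580 bases with Mrnip on the opposite strand.

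Nbr1, which encodes another ubiquitin-binding receptor that works together with p62, was at 16, 13.1 and 18.8 FPKM in control libraries without LPS and at 6.33, 6.42 and 6.05 FPKM after LPS. In silenced libraries it was at 15.7, 9.46 and 15.0 FPKM and then at 5.70, 3.98 and 4.72 FPKM. The libraries with LPS again did not overlap those without. Its log2 fold change was -1.21 ± 0.18 (adjusted p = 0.000223) and -1.29 ± 0.18 (adjusted p = 0.000133). The ratio of Sqstm1 to Nbr1 FPKM was 5.45 ± 0.34 in control cells without LPS and 51.2 ± 5.68 after LPS. The corresponding ratios in silenced cells were 7.18 ± 2.19 and 66.5 ± 13. A ratio taken within a library does not depend on that library's scaling factor. Sqstm1 made up 72.4% of the summed receptor FPKM in control cells without LPS and 92.8% after LPS. Calcoco1, a receptor for the endoplasmic reticulum and the Golgi, went from 2.04 ± 0.10 to 0.96 ± 0.17 FPKM in control cells (-0.64 ± 0.12) and from 1.88 ± 0.06 to 1.11 ± 0.16 FPKM in silenced cells (-0.46 ± 0.12). The call of Calcoco1 in silenced cells was lost under median-ratio scaling and quantile normalization. Tax1bp1, a ubiquitin-binding receptor at 14.8 ± 1.55 and 17.3 ± 1.09 FPKM in control cells, was not called in control or silenced cells.

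**Figure D2:**
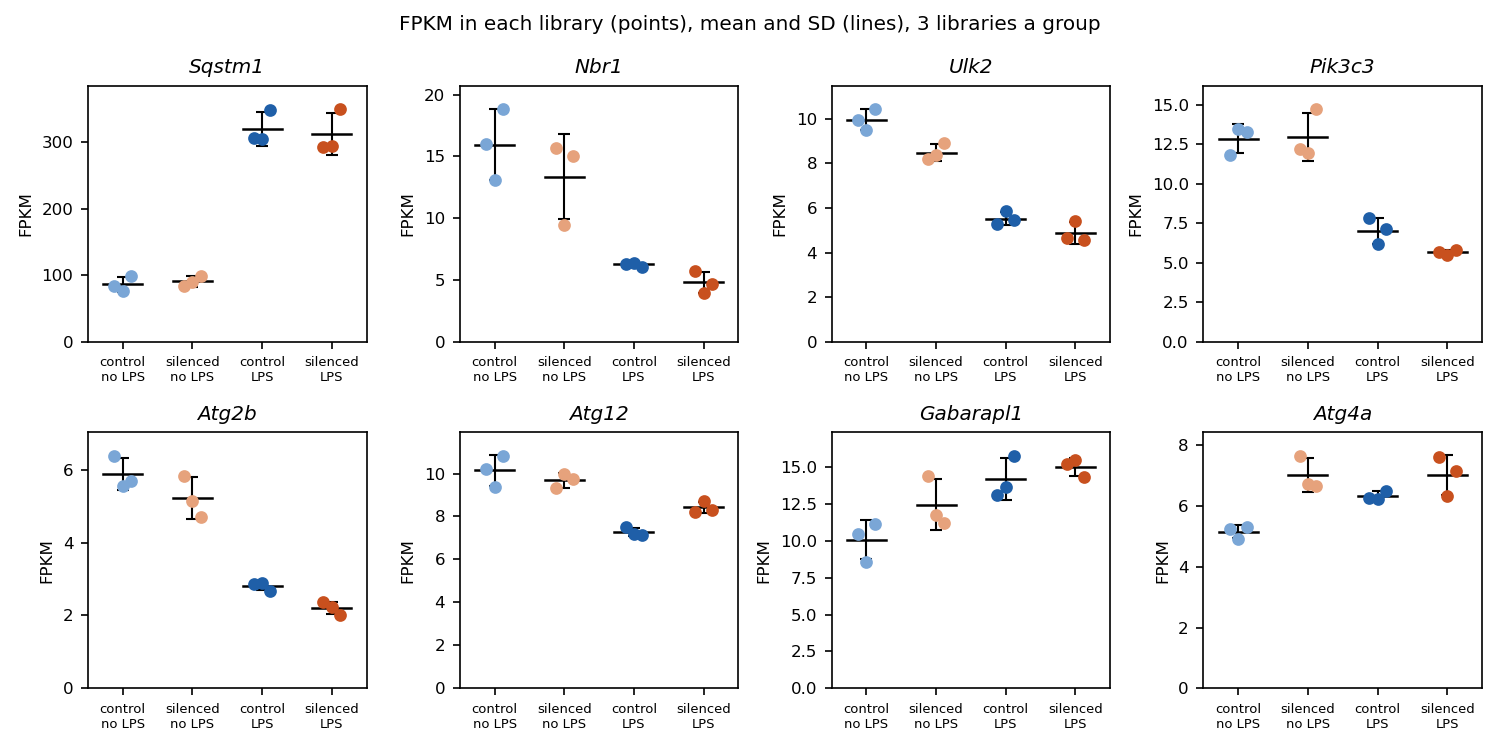
FPKM (y axis, from 0) in each of the 12 libraries for 8 autophagy genes, with the 4 groups on the x axis, points for libraries and black lines for the mean and SD. Sqstm1 rises from 76.5 to 99.7 FPKM without LPS to 294 to 349.8 FPKM with it, Nbr1, Ulk2, Pik3c3 and Atg2b fall without overlap in control and silenced cells alike, and Atg4a has its lowest libraries in control cells without LPS.

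With Synbindin silenced, 0 of the 34 tested autophagy genes passed the threshold against control cells at either time. With limma, 0 members were called without LPS, where 28 of all genes tested (0.214%) were. After LPS 0 were called (0.719% of all genes), with both times averaged 0 (1.04%), and for a different LPS response in silenced and control cells 0 (interaction, 0.0612%). At an unadjusted p under 0.05 there were 6 members without LPS (17.6%, against 12% of all genes), 4 after LPS (11.8%, against 13%), 4 with the times averaged (11.8%, against 13.8%) and 8 for the interaction (23.5%, against 11.3%). No other test than limma was run. The count also stayed at 0 in each alternative setting, where the smallest adjusted p reached was 0.0787. Control and silenced libraries did not overlap for 9 members without LPS (7 higher, 2 lower), against 18.2% of all genes (9.86% higher, 8.35% lower). After LPS they did not overlap for 6 (1 higher, 5 lower), against 18.9% (7.62% and 11.3%). The median log2 fold change was -0.01 without and -0.07 with LPS, beside 0.01 and -0.03 for all genes.

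The 95% intervals give, on the log2(FPKM + 1) scale, the range of changes compatible with these libraries. They are not the smallest change that could have been called. All 34 members had a 95% interval within 1 log2 unit of 0 at both times. The lowest bound was -0.86 (without LPS) and the highest 0.83 (without LPS). This scale understates the change of low genes, so these are not bounds on the fold change in FPKM. Within 0.5 log2 units lay the intervals of 21 members without LPS and of 26 after LPS. Sqstm1, the most abundant member, differed between silenced and control cells by 0.08 (95% interval -0.16 to 0.33) without LPS and by -0.04 (-0.28 to 0.21) after LPS. For the interaction, 33 of 34 intervals were within 1 log2 unit, the exception being Atg10, with -0.55 and a lower bound of -1.04. These bounds apply to cells in which the measured Trappc4 FPKM was 44.5% of the control mean without LPS and 56.1% after LPS.

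The member with the smallest p under silencing, named here after its values were seen, was Atg4a, one of the 4 ATG4 proteases. It was at 5.25, 4.91 and 5.30 FPKM in control libraries without LPS and at 7.66, 6.73 and 6.67 FPKM in silenced ones, with no overlap. After LPS it was at 6.28, 6.22 and 6.52 FPKM in control and at 7.63, 6.32 and 7.14 FPKM in silenced libraries, which overlapped. The log2 fold change was 0.38 ± 0.09 without LPS (95% interval 0.18 to 0.58, adjusted p = 0.136 with limma) and 0.13 ± 0.09 after LPS (adjusted p = 0.612). With both times averaged it was 0.25 ± 0.06 (adjusted p = 0.10). The annotation also holds a pseudogene, Atg4a-ps, which could share reads with it. The other members under an unadjusted p of 0.05 without LPS were Atg101 (0.30), Atg10 (0.48) and Gabarapl1 (0.28), which were above control, and Ulk2 (-0.21) and Rb1cc1 (-0.32), which were below. Of these 6, Atg101, Atg4a and Gabarapl1 were also called higher with LPS in control cells, and both comparisons rest on the same control libraries without LPS. Their means in control cells without LPS, silenced cells without LPS and control cells with LPS were 6.41 ± 0.34, 8.20 ± 1.34 and 8.10 ± 0.34 FPKM for Atg101. For Atg4a they were 5.16 ± 0.22, 7.02 ± 0.56 and 6.34 ± 0.16 FPKM. For Gabarapl1 they were 10.1 ± 1.32, 12.4 ± 1.73 and 14.2 ± 1.41 FPKM.

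**Figure D3:**
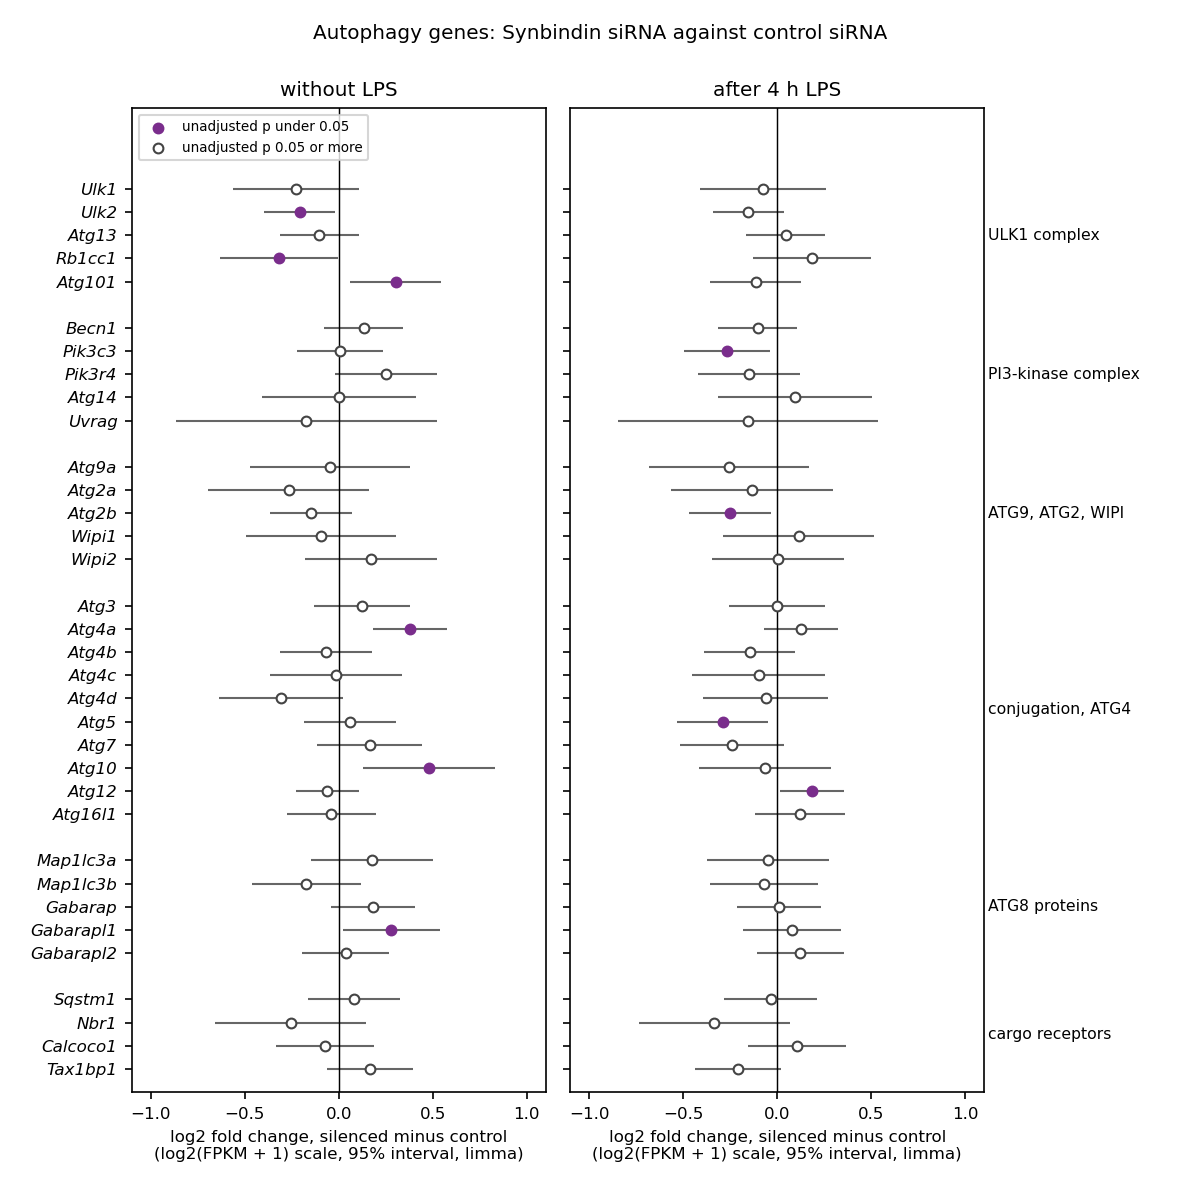
Log2 fold change of silenced against control cells (x axis, log2(FPKM + 1) scale) for the 34 tested autophagy genes without LPS (left) and after 4 h of LPS (right), with 95% intervals from limma. Filled points have an unadjusted p under 0.05 (6 on the left, 4 on the right), 0 passed adjustment over all genes, and no interval reaches 1 log2 unit from 0.

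A property of the members that the choice by symbol did not use is transcript length, taken as the longest annotated transcript. Across the 34 members, longer genes had the lower fold changes with LPS: Spearman's rho between length and log2 fold change was -0.67 in control and -0.51 in silenced cells. Over 13047 tested genes with a length it was -0.23 and -0.25. The 16 members that were lower in control cells had a median length of 4.49 kb and the 4 that were higher 2.01 kb, beside 3.81 and 2.53 kb for all genes called lower and higher. For silencing without LPS, in which 0 members were called, rho over the members was -0.69, and over all genes -0.09. After LPS these were -0.26 and -0.08. These are descriptions across genes that share the same libraries, depth and length scaling, and genes are not independent replicates. Whether length or RNA quality has a part in the changes was not tested. The share of mitochondrially encoded transcripts in all FPKM was 17.8% and 16% without LPS and 12.7% and 13.3% after it (control, then silenced).

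**Figure D4:**
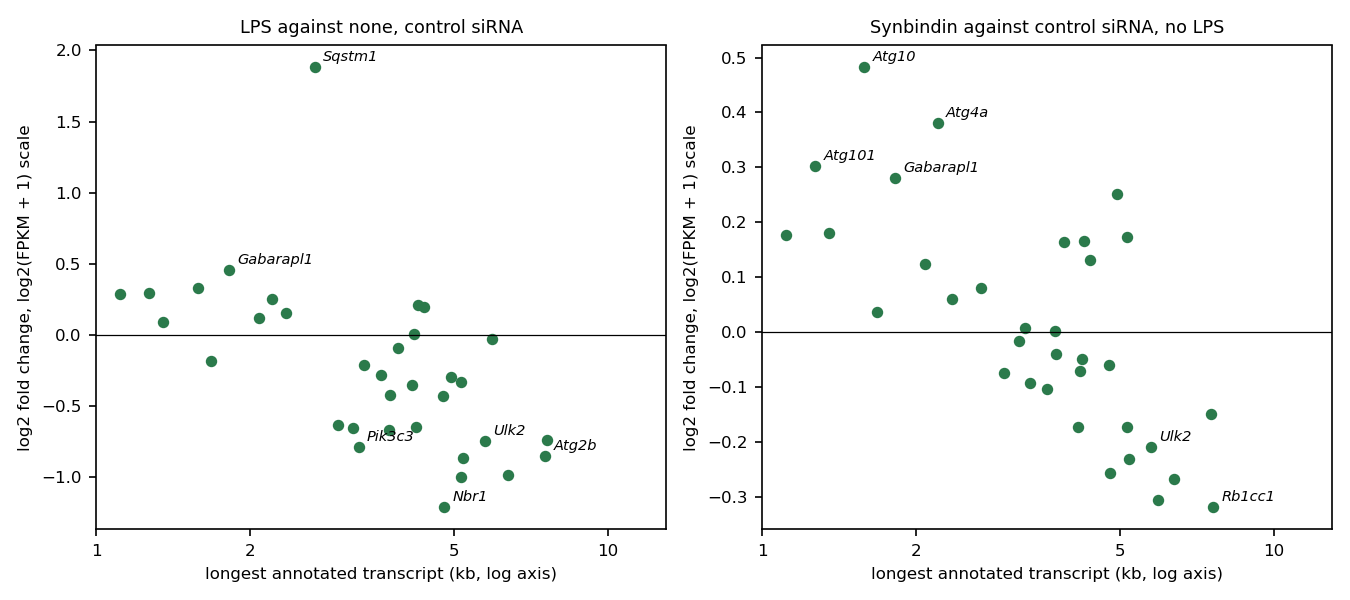
Longest annotated transcript in kb (x axis, log scale) against log2 fold change (y axis, log2(FPKM + 1) scale) for the 34 tested autophagy genes, with LPS in control cells (left) and with Synbindin siRNA without LPS (right). Each point is 1 gene and some are named. Spearman's rho is -0.67 on the left, where Sqstm1 lies far above the other genes, and -0.69 on the right.

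The genes around the core machinery were described from 3 lists of 81 genes, 76 of which were tested. Under silencing, 0 of them were called at either time, averaged over times or in the interaction. At an unadjusted p under 0.05 with limma there were 7, 7, 14 and 5 of the 76, where 12%, 13%, 13.8% and 11.3% of all genes were. The smallest adjusted p was 0.0746, for Akt1s1 after LPS. With LPS in control cells 7 of the 76 were higher and 40 lower, where 15.3% and 32.9% of all genes were. In silenced cells 6 were higher and 44 lower, where 13% and 35.5% of all genes were. In the list of nutrient and transcriptional control (mTORC1, AMPK, TFEB and FOXO genes), 0 of 25 tested genes were higher and 16 lower in control cells, and likewise 0 and 16 in silenced cells. Its median log2 fold change was -0.71 and -0.47, beside -0.17 and -0.21 for all genes. Under median-ratio scaling 2 were higher and 15 lower in control cells, while silenced cells had 3 and 11. In control cells the lowest were Foxo3, a transcription factor that activates autophagy genes (10.4 ± 2.11 to 2.18 ± 0.33 FPKM, log2 fold change -1.83), Sesn1, a leucine-sensing inhibitor of mTORC1 (8.60 ± 0.71 to 2.16 ± 0.55 FPKM, -1.62), and Ddit4, a stress-induced inhibitor of mTORC1 (3.30 ± 0.85 to 0.58 ± 0.26 FPKM, -1.44). In silenced cells their log2 fold changes were -1.63, -1.61 and -0.75, and Tfeb, named here after its values were seen, was lowest at -1.89.

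In the list of other formation, transport and fusion genes, 2 of 32 were higher and 19 lower with LPS in control cells (65.6% called, against 48.2% of all genes), while silenced cells had 3 and 20 (71.9%, against 48.5%). The median log2 fold change was -0.46 and -0.54, beside -0.17 and -0.21 for all genes. Under median-ratio scaling these were 5 and 15, and 4 and 13. In control cells Vmp1, an endoplasmic reticulum scramblase needed for autophagosome formation, went from 8.42 ± 0.61 to 20.1 ± 2.72 FPKM (1.15 ± 0.11), and Fyco1, an adaptor for autophagosome transport, from 4.73 ± 0.86 to 7.32 ± 1.31 FPKM (0.54 ± 0.16). In control cells the lowest were Plekhm1, a lysosome fusion adaptor (47.6 ± 7.82 to 11.3 ± 0.18 FPKM, -1.97), Tbc1d14, which acts on recycling endosomes (18.1 ± 1.58 to 4.55 ± 1.07 FPKM, -1.80), and Epg5, a fusion tether (8.21 ± 1.03 to 2.99 ± 0.11 FPKM, -1.20). In silenced cells these 3 were at -2.01, -1.94 and -0.83, and Epg5 was not among the lowest 3 there. The list also holds Trappc8, Trappc11, Trappc12 and Trappc13, which belong with Trappc4 to the TRAPPIII form of the complex and are named here after their values were seen. All 4 were lower with LPS in control cells (-0.90, -0.67, -0.34 and -0.51), and their differences between silenced and control cells without LPS were -0.10, 0.09, 0.05 and 0.12 (adjusted p of 0.72 or more with limma).

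In the list of other selective autophagy genes, 5 of 19 were higher and 5 lower with LPS in control cells (52.6% called, against 48.2% of all genes), while silenced cells had 3 and 8 (57.9%, against 48.5%). The median log2 fold change was -0.16 and -0.12, beside -0.17 and -0.21 for all genes. Under median-ratio scaling these were 7 and 4, and 5 and 2. Irgm1, an interferon-inducible GTPase, had the largest rise, from 14.5 ± 6.71 to 144 ± 21 FPKM in control cells (log2 fold change 3.33 ± 0.32). Lgals8, a galectin that detects damaged vesicles, went from 22.8 ± 2.17 to 48.7 ± 2.11 FPKM (1.06 ± 0.09), and Pink1, a kinase of mitophagy, from 4.23 ± 1.57 to 7.78 ± 0.99 FPKM (0.78 ± 0.24). In control cells the lowest were Wdfy3, an adaptor for aggregates (19.4 ± 3.16 to 8.78 ± 0.80 FPKM, -1.05), the mitochondrial receptor Bnip3 (90.0 ± 15.3 to 45.4 ± 12.5 FPKM, -0.99) and the endoplasmic reticulum receptor Retreg1, listed under its older symbol Fam134b (28.1 ± 5.36 to 18.4 ± 0.95 FPKM, -0.57). In silenced cells the log2 fold changes of these 6 were 4.24, 1.44, 0.24, -0.51, -1.19 and -0.68, and that of Pink1 did not pass (adjusted p = 0.443 with limma).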

How the data were processed

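Libraries kept strand, per the labels' protocols, and HISAT2, StringTie and the mouse build GRCm38 are named in the submitters' processing notes, without versions. The annotation release and the strand setting of counting are not given in the sources used, so genes that overlap on opposite strands may share reads. Gene FPKM were deposited by the authors in 1 table with 12 library columns. FPKM cannot be given to a count test. Depth was estimated from the steps between low values of genes with 1 transcript and is rough, since only 5.71% to 10.3% of those values fell within 1% of a whole step (2% by chance).

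limma 3.58.1 (R 4.3.3) was fitted to log2(FPKM + 1) for genes that reached 1 FPKM in 3 or more libraries, with the 4 groups in a single fit (8 residual degrees of freedom), an intensity trend and 2-sided tests. This scale understates the change of low genes. The fit was tested on simulated data. Positions are from GENCODE M21 (53620 of 53801 IDs found), promoters from RefSeq. The members and lists were chosen with earlier results of these data known. Values in every library are given for Trappc4, for members called under silencing or called with an absolute log2 fold change of at least 1 with LPS and, in each other role group, for the member with the smallest p with LPS in control cells. From the 3 further lists, up to 3 of the highest and 3 of the lowest called genes are named. The settings varied were the pseudocount (0.1), the filter (none, or 5 FPKM), 3 scalings, the replicate number as a block, the groups in the fit, the trend, each library left out and, chosen after seeing the data, estimated depth as a covariate.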

Additional observations from a re-analysis of the deposited data

How the results depend on the processing

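The count of members called under silencing and for the interaction was 0 in each setting run. With LPS it was 20 in control cells, from 14 to 22 over the settings (14 to 20 with 1 library left out), and 15 in silenced cells, from 11 to 17 (12 to 15 with 1 library left out). No called member changed direction in a setting run. Sqstm1, Nbr1, Pik3c3, Ulk2, Atg2a and Atg2b were called in all 22 settings in control and silenced cells, and Gabarapl1 and Atg12 in all 22 in control cells. In control cells the call of Atg13 was lost without control replicate 1 or 3 at either time, that of Atg9a without control replicate 3 at 0 h or 1 at 4 h, and that of Atg4a without any 1 control library. In silenced cells Atg14 was lost without silenced replicate 2 or 3 at 0 h or 3 at 4 h. For all genes, calls under silencing without LPS numbered 28 and ranged from 3 to 48 over the settings (3 to 41 with 1 library left out). After LPS they numbered 94, with 0 in a fit of only the groups compared, 18 with estimated depth as a covariate, 50 without the intensity trend, 38 with quantile normalization and 10 to 91 with 1 library left out. Averaged over times they numbered 136 (63 to 175), and for the interaction 8 (0 to 20). Trappc4 at 44.5% and 56.1% remaining ranged from 39.7% to 50.3% and from 49.3% to 62.7% with 1 library left out.

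Replicate numbers were shared by the groups. Of 18 correlations of deviations between same-numbered libraries, 3 were over 0.1 (range -0.03 to 0.19, median 0.05), so they were low. Yet 10 of 12 libraries correlated best with their own number, and the main fit left the replicate number out. With the replicate block, 19 members were called with LPS in control cells, 15 in silenced cells and 0 under silencing. FPKM carry no depth of their own, so no counting error could be attached to low members such as Map1lc3a or Rb1cc1.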
